A study of Mus musculus with 3 samples.

Results

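The Gimap genes (GTPases of the immunity-associated proteins) were followed through lymphocytes sorted from mouse tumors. The family was taken by gene symbol, and all 8 members (Gimap1, Gimap3, Gimap4, Gimap5, Gimap6, Gimap7, Gimap8 and Gimap9) were found among the 32285 genes of the tables and passed the filter on low counts. Single-cell RNA sequencing (10x Genomics 3' v3) had been done on tumor-infiltrating lymphocytes from subcutaneous MC38-Ova tumors, a mouse colon carcinoma line carrying ovalbumin, grown in C57BL/6 mice that are wild type but for the Kaede transgene. Kaede is a protein that turns from green to red under violet light. Tumors were photoconverted on day 13 and taken on day 15, so Kaede-green (KG+) cells had entered within 48 h and Kaede-red (KR+) cells had been in the tumor for at least 48 h. There were 3 libraries, called KG+ 1, KG+ 2 and KR+ here, all labelled as isotype control treated, and values given as 3 numbers follow this order. The labels name the KG+ libraries as biological replicates without giving the animals. The p-values rest on how far differences between groups of cells varied among the 3 libraries, with KR+ counted beside KG+. They do not measure the spread between animals. The sort took live CD45+ TER119- Kaede+ cells and left out CD11b+ NK1.1- cells.

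GIMAP proteins are small GTPases expressed mainly in lymphocytes, and their genes lie side by side in a single cluster. Several sit on intracellular membranes through a C-terminal anchor, and GIMAP5 in particular is needed for the survival of resting T cells and for NK cells. The family is known for its high expression in naive, non-dividing lymphocytes and for its decline on T cell activation.

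In GRCm38 the 8 genes span chr6:48647234-48770851, which is 123.6 kb. From the low coordinate they are Gimap8 (chr6:48647234-48660875), Gimap9 (chr6:48676129-48679114), Gimap4 (chr6:48684549-48692060), Gimap6 (chr6:48701582-48708225), Gimap7 (chr6:48718621-48724636), Gimap1 (chr6:48739054-48743795), Gimap5 (chr6:48746197-48754210) and Gimap3 (chr6:48764464-48770851). Gimap6 and Gimap3 are on the minus strand and the other 6 on the plus strand. Reads may be shared at 3 places in the cluster. The readthrough gene Gm28053 overlaps Gimap7, Gimap1 and Gimap5 on their own strand and has no row in the tables. The antisense gene Gimap1os overlaps Gimap1, and since no strand setting is stated, the levels of both genes are uncertain where they overlap. Gimap3 and Gimap5 share 51 stretches of 90 bases in their transcripts, so their levels are uncertain where reads could be split between them, whereas no such stretch was shared by any other pair.

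The promoters of 3 members, chosen by the results below, are shown. As a share of UMIs, Gimap6 fell the most in CD8 T cells, and Gimap7 was the member called higher in regulatory than in other CD4+ T cells. Gimap9 had the largest fall in NK cells (log2 change -1.13, SE 0.16), though Gimap3 was close (-1.11, SE 0.19). Each sequence runs 5' to 3' on the gene's own strand, from 250 bases before to 50 bases after the RefSeq start (GRCm38.p6). Capitals mark CACCC (the core bound by KLF factors) or TGTGGT (the core bound by RUNX factors) on either strand.
Gimap6 (chr6:48708195-48708494, minus strand): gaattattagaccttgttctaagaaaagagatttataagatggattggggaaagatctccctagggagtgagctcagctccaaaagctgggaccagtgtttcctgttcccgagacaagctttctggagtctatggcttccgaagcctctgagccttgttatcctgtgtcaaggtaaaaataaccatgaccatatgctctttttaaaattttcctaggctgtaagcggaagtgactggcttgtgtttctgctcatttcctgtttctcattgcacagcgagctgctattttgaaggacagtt
Gimap7 (chr6:48718371-48718670, plus strand): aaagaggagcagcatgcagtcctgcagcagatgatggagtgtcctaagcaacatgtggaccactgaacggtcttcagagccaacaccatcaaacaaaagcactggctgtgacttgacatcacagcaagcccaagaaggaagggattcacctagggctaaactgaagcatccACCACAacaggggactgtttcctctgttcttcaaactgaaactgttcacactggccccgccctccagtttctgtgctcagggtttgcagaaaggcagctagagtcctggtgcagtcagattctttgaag
Gimap9 (chr6:48675885-48676184, plus strand): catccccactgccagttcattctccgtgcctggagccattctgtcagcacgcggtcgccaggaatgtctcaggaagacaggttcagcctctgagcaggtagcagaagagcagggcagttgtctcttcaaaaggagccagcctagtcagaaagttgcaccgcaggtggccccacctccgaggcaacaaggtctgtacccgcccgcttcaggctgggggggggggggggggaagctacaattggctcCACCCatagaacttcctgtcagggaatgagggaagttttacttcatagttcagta
The Gimap6 window held neither word, the Gimap7 window held TGTGGT on the opposite strand, and the Gimap9 window held CACCC. Among the 9 promoter windows of the family (Gimap8 has 2 starts), CACCC was in 6, belonging to Gimap3, Gimap4, Gimap5, Gimap8 and Gimap9, against 57.5% of the 32851 mouse promoters. TGTGGT was in 3 windows, those of Gimap1, Gimap4 and Gimap7, against 16.8% of all promoters. The longer words CCACACCC, CCGGAAGT and TGTGGTTT were in 0 of the 9 windows, against 3.56%, 3.89% and 1.78% of all promoters. The members share no single word of those searched, and a match is a description of letters only.

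Cells were placed in 8 gates by their raw UMIs (unique molecular identifiers, 1 per captured RNA). NK cells had Ncr1 at 1 or more and Cd3e at 1 or less, and were divided into Itgam+ (Itgam encodes CD11b), Itga1+ (Itga1 encodes CD49a) and neither. CD8 T cells had Cd3e, Cd8a and Cd8b1 and were divided into S1pr1+ (S1pr1 is the receptor that guides lymphocytes out of tissues), Havcr2+ (Havcr2 encodes TIM-3) and neither. CD4+ T cells without Foxp3 and Foxp3+ regulatory T cells (Treg) made up the other two gates. Together 20313 of the 31943 cells kept were in these gates, from 808 NK Itgam+ cells to 5198 NK cells with neither gene. The KR+ library held only 76 of the NK Itgam+ cells. Libraries differed in depth, with median UMIs per cell of 6628, 8512.5 and 12076 in the 3 libraries. The gates bore out their labels, since summed NK markers were 2015 to 3161 CPM (UMIs of a gene in every 1000000 UMIs of the sum) in the NK gates against 200 to 1806 in the T cell gates. Summed T cell markers were 305 to 494 CPM in the NK gates against 3357 to 5374 in the T cell gates. Summed B cell markers did not exceed 20.3 CPM in any gate. Summed Treg markers, Foxp3 among them, were 3333 to 3817 CPM in Treg and 765 to 1457 in CD4+ T cells. In the NK and CD8 gates they were 67.2 to 637. Whether the CD4+ gate held Treg without a Foxp3 UMI was not tested.

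Every member was detected in every gate, and as a share of UMIs the family had its highest mean in NK Itgam+ cells and its lowest in CD8 Havcr2+ T cells. Per cell the order of means was different, with Treg first (26.2 ± 2.7 UMIs, mean ± SD) and NK Itgam+ cells (17.9 ± 2.6) below NK Itga1+ cells (22.1 ± 1.3). CD8 Havcr2+ cells still had the lowest mean per cell (15.4 ± 2.1, libraries 13.1 to 16.9). That range overlapped with CD8 cells with neither gene (15.3 to 17.5), NK Itgam+ cells (15.8 to 20.7) and CD4+ T cells (16.9 to 21.3). The members' summed level was 2776, 2662 and 1845 CPM in NK Itgam+ cells (2428 ± 508, mean ± SD, n = 3 libraries of both colors). In CD8 Havcr2+ cells it was 826, 1010 and 859 CPM (898 ± 98). These levels did not overlap, but within the KR+ library NK Itgam+ cells lay below CD4+ T cells (2171 CPM) and Treg (2510 CPM). Between them in order of mean came CD4+ T cells (2372 ± 193 CPM), Treg (2191 ± 309), NK cells with neither gene (2044 ± 681), CD8 S1pr1+ (1957 ± 261), CD8 with neither gene (1379 ± 253) and NK Itga1+ (1321 ± 362). The first 5 gates in this order overlapped with their neighbors, the S1pr1+ gate stood above the next without overlap, and the last 3 overlapped with their neighbors. In myeloid cells outside the gates, the family was at 69.4, 111 and 51.1 CPM, below every gate. These values are 3' UMI counts that were not scaled by transcript length, so levels are compared between gates for the same gene and not between genes.

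**Figure D1:**
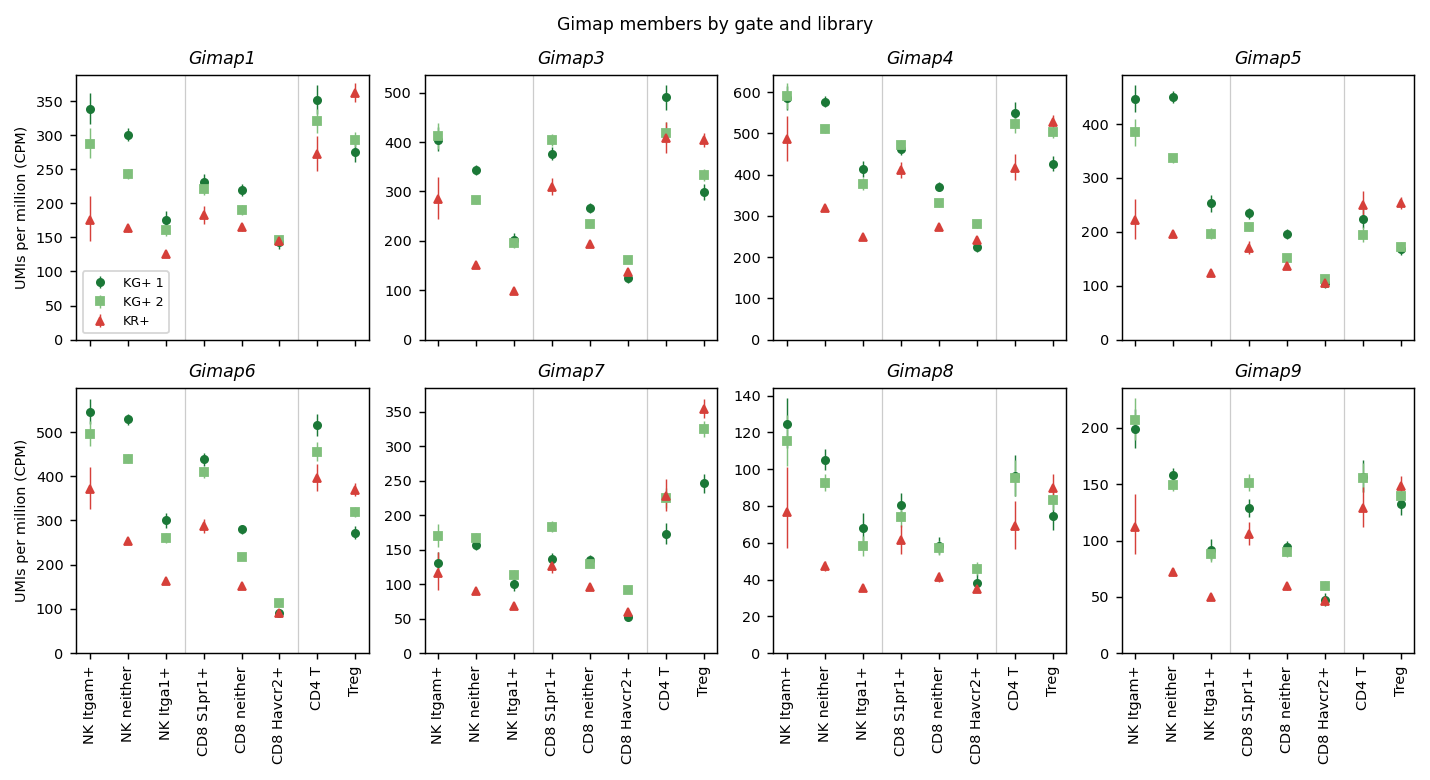
Level of each Gimap gene (vertical axis, CPM from 0) in the 8 gates (horizontal axis), with 1 point per library and bars for the exact 95% counting interval. Each member has its lowest mean in the CD8 Havcr2+ gate, and Gimap7 is highest in Treg, at 246 to 354 CPM.

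Taken gene by gene, only a few neighbors in the order of gates stood apart. Gimap5 and Gimap6 were higher in CD8 cells with neither gene than in Havcr2+ cells without overlap, and Gimap7 was higher in Treg than in CD4+ T cells without overlap. Over the 24 sums of library and gate, the 28 pairs of members had a Pearson r of 0.49 (Gimap5 and Gimap7) to 0.98 (Gimap4 and Gimap8) with a median of 0.87. These are descriptions over sums that share libraries and depth.

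The first comparison asked whether the family was lower in the NK cells that carry the residency integrin Itga1 than in those that carry Itgam. All 8 members were lower in Itga1+ than in Itgam+ NK cells as a share of UMIs (edgeR quasi-likelihood, library as a block, Benjamini-Hochberg adjusted p under 0.05 over 12004 genes), where 16.2% of all genes tested were called lower. With the sums scaled by cells, 0 of the 8 were lower and Gimap1, Gimap4 and Gimap7 were higher. Gimap9, whose product is a GTPase of the family with less well-known function, was at 199, 207 and 112 CPM in Itgam+ cells and 91.5, 87.7 and 49.9 CPM in Itga1+ cells. All 3 Itga1+ values lay below all 3 Itgam+ values, and Gimap9 fell by 1.13 on the log2 scale (SE 0.16, adjusted p = 5.99e-05 by edgeR).

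Gimap3, the paralog closest to Gimap5, was at 405, 412 and 285 CPM in Itgam+ cells and 202, 195 and 99.3 CPM in Itga1+ cells. The groups did not overlap and the change was -1.11 (SE 0.19, adjusted p = 0.000315 by edgeR). Gimap6, known for its part in autophagy, was at 546, 496 and 371 CPM in Itgam+ cells and 300, 261 and 162 CPM in Itga1+ cells, again without overlap (-0.90, SE 0.18, adjusted p = 0.000782 by edgeR). Gimap5, the member tied to lymphocyte survival, was at 447, 385 and 222 CPM against 253, 196 and 124 CPM. Here the groups overlapped, since KG+ 1 in Itga1+ cells lay above KR+ in Itgam+ cells, but within each library Itga1+ cells were lower (-0.83, SE 0.22, adjusted p = 0.00626 by edgeR). The other 4 changes lay between -0.93 (Gimap8) and -0.51 (Gimap7, adjusted p = 0.0384 by edgeR). Within each of the 3 libraries all 8 members were lower as a share of UMIs. Without KG+ 2, 4 of the 8 passed, where 832 of 11860 genes were lower. Without KG+ 1 or KR+ 7 did, where 994 of 12468 and 1561 of 12052 genes were lower.

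Itga1+ NK cells were also the deeper cells, and this moved with the result. Their median UMI count was 9493, 12075 and 24478, against 5345, 6717 and 6701 in Itgam+ cells. Counted per cell, the family stood at 20.6, 22.4 and 23.2 UMIs in Itga1+ cells and 17.1, 20.7 and 15.8 UMIs in Itgam+ cells. When the sums were scaled by the number of cells, the median of all genes was 1.13 log2 units higher in Itga1+ cells and 77.4% of genes were called higher. On that scale Gimap7 was 0.62 higher (adjusted p = 0.000776 by edgeR), Gimap4 0.51 higher and Gimap1 0.43 higher, Gimap3, Gimap5, Gimap6, Gimap8 and Gimap9 passed in neither direction, and 0 were lower. The members took a smaller share of the UMIs in Itga1+ than in Itgam+ cells of each library, while their summed UMIs per cell were higher there in each library. Myeloid markers summed to 14.1 to 233 CPM in Itgam+ cells against 5.9 to 37.0 in the other NK gates, and their part in the result was not tested.

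As a share of UMIs, the summed family in NK cells with neither integrin gene lay between, at 2618, 2222 and 1291 CPM. Gimap7 was not lower there than in Itgam+ cells (0.055). This gate rests on the absence of UMIs for both genes. Whether it mixed undetected Itgam+ and Itga1+ cells was not tested, and a mixture would also lie between. Against Itgam+ cells 0 of 8 members were called by edgeR, with 3.28% of genes called lower, 2 members at an unadjusted p under 0.05 (Gimap3 and Gimap9) and 0 by DESeq2. Going on from these cells to Itga1+ cells, 7 of 8 members were lower by edgeR where 3.9% of all genes were, from -0.77 (Gimap5) to -0.56 (Gimap7). Gimap4 (-0.43, SE 0.13, adjusted p = 0.0517 by edgeR) missed the threshold. With the library left out of the model, 0 of these 7 passed, and 0 passed without KG+ 1, without KG+ 2, or when sums were scaled by cells, where the 8 changes lay above 0. Few genes of any kind were lower in these fits. They numbered 0 of 12004 with the library left out of the model, 15 of 12468 without KG+ 1 and 4 of 11860 without KG+ 2. Scaled by cells, 19 of 12004 were lower.

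The CD8 T cell comparison set Havcr2+ cells, which carry the inhibitory receptor TIM-3, against S1pr1+ cells. All 8 members were again lower, where 21.0% of all genes tested were called lower by edgeR. Gimap6 had the largest change of the 8. It was at 438, 409 and 287 CPM in S1pr1+ cells and 91.7, 113 and 89.7 CPM in Havcr2+ cells. The groups were far from overlapping, and Gimap6 fell by 1.97 on the log2 scale (SE 0.18, adjusted p = 3.22e-08 by edgeR), to 3.92-fold lower.

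Gimap3 was at 376, 405 and 310 CPM in S1pr1+ cells and 124, 162 and 138 CPM in Havcr2+ cells, a change of -1.40 (SE 0.19). Gimap9 was at 129, 151 and 106 CPM against 47.3, 59.9 and 46.5 CPM, a change of -1.36 (SE 0.15). Gimap7 was at 136, 183 and 126 CPM against 52.4, 91.8 and 59.5 CPM, a change of -1.19 (SE 0.17). None of these 3 overlapped between the gates. The other 4 changes were smaller, at -0.97 (Gimap5), -0.90 (Gimap4, linked to T cell death), -0.89 (Gimap8) and -0.59 (Gimap1, which mature lymphocytes need, SE 0.15, adjusted p = 0.00268 by edgeR), and all 8 held their direction within each of the 3 libraries.

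In these CD8 T cells the decline was also seen per cell for the members that changed most. Median UMIs were 12737.5, 12523 and 17552 in Havcr2+ cells against 9028, 9348 and 10191 in S1pr1+ cells. The family stood at 13.1, 16.4 and 16.9 UMIs per Havcr2+ cell and at 21.3, 23.8 and 21.3 UMIs per S1pr1+ cell, without overlap. With sums scaled by cells, Gimap3, Gimap6, Gimap7 and Gimap9 stayed lower by edgeR, where 4.61% of all genes were, although the median of all genes was 0.64 higher. Gimap4, Gimap5 and Gimap8 no longer passed, and Gimap1 was at 0.053.

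The difference between both changes was tested directly. Gimap6 fell by 1.07 log2 units more in CD8 T than in NK cells (SE 0.25, adjusted p = 0.00528 by edgeR), the single member called, where 8.06% of all genes were called in that direction. Gimap7 followed at 0.69 (SE 0.25, adjusted p = 0.0673 by edgeR), and the other 6 differences lay between -0.13 and 0.29. Without KG+ 1 or without KG+ 2 no member was called, and without KR+ 4 were. Of all genes, 280 of 12468, 236 of 11860 and 1031 of 12052 were called in that direction in these fits. Scaled by cells 5 were called, Gimap6 among them, where 12.4% of all genes were and the median of all genes was 0.53.

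The share of cells with Gimap6 depended on depth. With each cell thinned to 2000 UMIs, Gimap6 was detected in 60.9% of NK Itgam+ and 36.5% of NK Itga1+ cells, and in 52.4% of CD8 S1pr1+ and 16.9% of CD8 Havcr2+ cells. Myeloid cells, a type low in the family, were at 2.41%. Without thinning, the CD8 T cell shares were 88.9% and 68.4%, at median depths of 9391.5 and 15618.5 UMIs. In NK cells the unthinned shares were 90.3% and 92.0% at median depths of 5996.5 and 20015 UMIs, so the order of the NK gates was seen with thinned cells and in CPM but not in unthinned shares. Unthinned myeloid cells were at 14.5% at a median of 14452 UMIs. At least 3 different members were detected in 75.4% of thinned NK Itgam+ cells and 34.2% of Itga1+ cells, and in 60.6% of CD8 S1pr1+ and 21.6% of Havcr2+ cells.

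**Figure D2:**
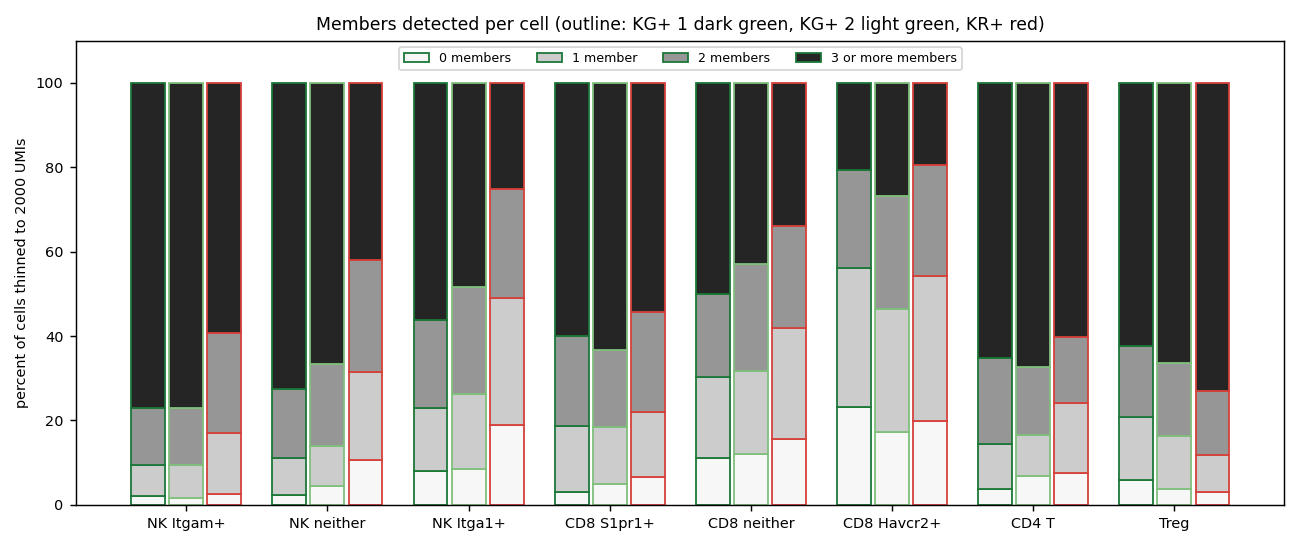
Percent of cells, thinned to 2000 UMIs, in which 0, 1, 2 or at least 3 of the 8 Gimap genes were detected (stacked shades), with 1 bar per gate and library, outlined dark green for KG+ 1, light green for KG+ 2 and red for KR+. The black part, 3 or more members, is smallest in CD8 Havcr2+ cells.

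Between lineages, 6 of 8 members were lower in CD8 T than in NK cells, averaged over their gates, where 23.9% of genes were called lower by edgeR. The changes of the 6 ran from -0.87 (Gimap5) to -0.25 (Gimap1), while Gimap3 (-0.12) and Gimap7 (-0.20) did not pass. CD4+ T cells had 7 of 8 members higher than CD8 T cells (18.2% of genes called higher), led by Gimap6 at 1.08 (SE 0.14, adjusted p = 4.67e-06 by edgeR), and Gimap5 did not pass at 0.43 (adjusted p = 0.065 by edgeR). Scaled by cells, 4 members stayed lower in CD8 T than in NK cells (10.1% of genes) while Gimap3 was higher (45.2% of genes), and Gimap6 alone stayed higher in CD4+ than in CD8 T cells (4.38% of genes).

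Between Treg and CD4+ T cells, 1 of 8 members was called higher and 1 lower by edgeR. With 13.9% of all genes called in each direction, members were called about as often as genes at large. Gimap7 was at 246, 326 and 354 CPM in Treg and 173, 225 and 228 CPM in CD4+ T cells. All Treg values were above all CD4+ values, and the change was 0.56 (SE 0.17, adjusted p = 0.0183 by edgeR), where 13.9% of genes were called higher. Thinned to 2000 UMIs, Gimap7 was detected in 44.8% of Treg and 28.9% of CD4+ T cells, against 78.7% and 55.0% without thinning (median depths 8591 and 6303 UMIs). Myeloid cells were at 2.41% thinned and 8.43% unthinned. Gimap6 was at 272, 318 and 370 CPM in Treg against 515, 455 and 397 CPM, without overlap, and its change was -0.49 (SE 0.17, adjusted p = 0.0408 by edgeR), where 13.9% of genes were called lower. The Gimap6 call was lost with thinned cells, without cycling cells and without the library block, and scaled by cells its change was 0.077. Gimap7 was higher on both scales, and scaled by cells Gimap1, Gimap4, Gimap5, Gimap8 and Gimap9 were higher too, where 48.0% of genes were and the median of all genes was 0.61 higher. The Gimap7 call was also lost without the library block and without KG+ 2, and the Gimap6 call without KG+ 1 and without KG+ 2, while 3 members were called lower without KR+. Of all genes, 1013 of 12004 were higher without the block and 513 of 11860 without KG+ 2. Lower were 638 of 12468 without KG+ 1, 664 of 11860 without KG+ 2 and 1896 of 12052 without KR+.

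**Figure D3:**
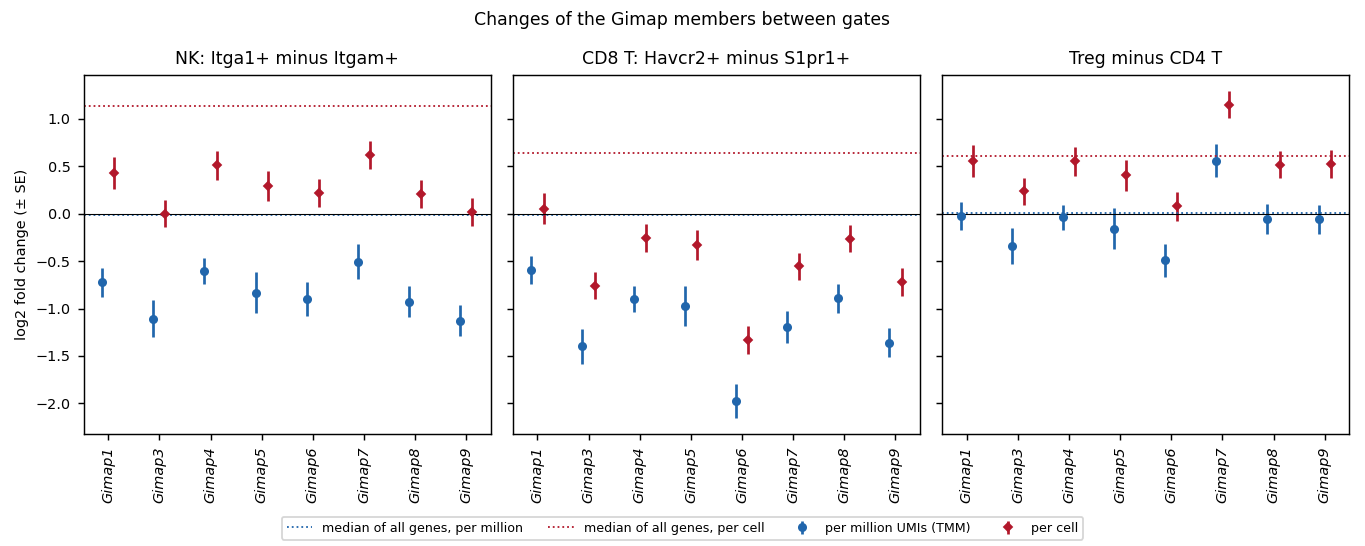
Log2 fold change (± SE, from edgeR) of each Gimap gene between gates, with sums scaled by UMIs (blue circles) and by number of cells (red diamonds), and dotted lines at the median of all genes on each scale. In NK cells the values lie below 0 by UMIs and above 0 by cells, in CD8 T cells every member but Gimap1 stays below 0 on both scales (called on both for Gimap3, Gimap6, Gimap7 and Gimap9), and in Treg Gimap7 lies above 0 on both.

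Cycling cells, defined by both Mki67 and Top2a, were set against cells with neither gene within 3 gates. The cycling cells numbered 20, 49 and 351 (NK Itga1+), 58, 181 and 482 (CD8 Havcr2+) and 67, 126 and 87 (Treg). As a share of UMIs, 8 of 8 members were lower in cycling NK Itga1+ cells (9.86% of 10534 genes called lower by edgeR), 6 in cycling CD8 Havcr2+ cells (12.5%) and 7 in cycling Treg (19.9%). Gimap3 had the largest change in each gate. In NK Itga1+ cells it was at 77.3, 99.97 and 66.2 CPM when cycling and 269, 238 and 131 CPM when not, a change of -1.45 (SE 0.20, adjusted p = 2.43e-05 by edgeR). The groups did not overlap. In Treg it was at 136, 172 and 226 CPM against 414, 459 and 498 CPM, a change of -1.32 (SE 0.19), and in CD8 Havcr2+ cells the change was -0.87 (SE 0.19). Gimap7 and Gimap9 in CD8 Havcr2+ cells and Gimap9 in Treg did not pass.

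Cycling cells held more Gimap UMIs each. The family stood at 28.6, 27.2 and 26.97 UMIs per cycling NK Itga1+ cell and 19.4, 21.0 and 21.0 UMIs per non-cycling cell, while the cells' mean UMIs were 31707, 30826 and 35816 against 9823, 12245 and 19561. Scaled by cells, 0 members were lower in cycling cells of any of the 3 gates, and 4, 7 and 6 were higher in NK Itga1+, CD8 Havcr2+ and Treg. Of all genes 85.1%, 85.0% and 83.9% were called higher there, with medians 1.22, 1.14 and 1.37 higher. Since 6.35 to 23.0% of NK Itga1+ cells and 15.3 to 26.2% of CD8 Havcr2+ cells were cycling, the gates were also compared without any cell holding Mki67 or Top2a. Then 6 of 8 members were lower in NK Itga1+ than in Itgam+ cells (11.4% of 10694 genes) and 8 of 8 in CD8 Havcr2+ than in S1pr1+ cells (18.1%), while 2 were lower in NK Itga1+ cells than in NK cells with neither gene (1.05%).

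Kaede color was described without a test, because KR+ cells came as 1 library. A member was counted as lower in KR+ where it lay at least 1.5-fold below both KG+ libraries. In NK cells with neither gene this held for 7 of 8 members (13.6% of all genes), in NK Itga1+ for 6 (11.7%) and in NK Itgam+ for 3 (13.3%). In these 3 gates the 8 members lay below both KG+ libraries, as did 54.8%, 50.6% and 42.4% of all genes. Their median log2 ratios were -0.96, -0.80 and -0.57, against -0.17, -0.13 and -0.03 for all genes. Gimap5 was at 450, 336 and 196 CPM in NK cells with neither gene, which put KR+ at -0.78 log2 units against the nearer KG+ library (95% interval -0.83 to -0.72, counting error only). The KG+ libraries themselves differed by -0.42 log2 units (KG+ 2 against KG+ 1). Per cell, 6 members lay below and 0 above both KG+ libraries in NK Itgam+ cells, 5 below and 1 above in NK cells with neither gene, and 1 below and 4 above in NK Itga1+ cells. No share of all genes was counted on the per-cell scale in any gate. The per-cell color counts here and below therefore cannot be set against genes at large. Mean UMIs per NK Itga1+ cell were 12876.5, 15464 and 25418 in the 3 libraries.

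As a share of UMIs, T cells differed less by color. In CD8 S1pr1+ cells 0 members were 1.5-fold lower (6.26% of genes), though all 8 lay below both KG+ libraries (34.8% of genes did). In CD8 cells with neither gene 1 was 1.5-fold lower (Gimap9, 5.36%) and all 8 lay below both (35.8%). In CD8 Havcr2+ cells 0 were 1.5-fold lower (5.56%) and 3 lay below both (38.6%). In CD4+ T cells 0 were lower by that fold (7.56%), with 6 below (32.2%) and 2 above both (42.3%). Per cell, 4, 7, 0 and 6 members lay below and 1, 0, 4 and 1 above both KG+ libraries in these 4 gates.

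Treg went the other way. All 8 members lay above both KG+ libraries in KR+ Treg, where 41.4% of genes did, with a median log2 ratio of 0.33. None reached 1.5-fold in either direction (3.85% of genes were lower and 4.73% higher). Gimap5 was at 168, 173 and 254 CPM in Treg, and Gimap1 at 276, 293 and 362 CPM. The KR+ Treg were the shallower cells, with a median of 7139 UMIs against 9577.5 and 10098, and per cell 1 member lay above and 3 below both KG+ libraries. They also held fewer cycling cells (12.3% against 17.3 and 17.8%), and without cycling cells 7 members lay above both.

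**Figure D4:**
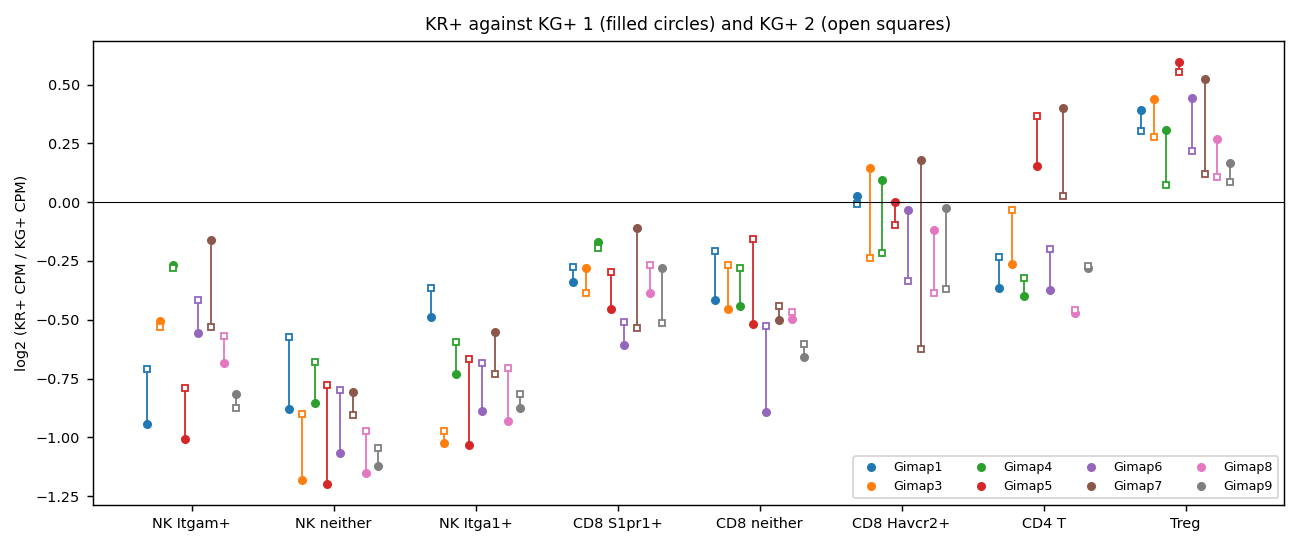
Log2 ratio of the CPM in KR+ to that in KG+ 1 (filled circles) and in KG+ 2 (open squares) for the 8 Gimap genes in each gate, with no test since KR+ is 1 library. Ratios lie below 0 in the 3 NK gates and above 0 in Treg. Counted per cell, 1 member stays below both KG+ libraries in NK Itga1+ cells and 1 above both in Treg. No share of all genes was counted on that scale.

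Other genes of resting and recirculating lymphocytes were read from a list of 24, all tested. In NK Itga1+ against Itgam+ cells 15 were lower and 0 higher, where 16.2% and 17.5% of all genes were. The list had a median of -0.67 against -0.01 for all genes. The 3 that fell most were Rasgrp2, an activator of the GTPase Rap1 (-2.05), Klf2, a factor that maintains S1pr1 (-1.81), and Klf3 (-1.62). In CD8 Havcr2+ against S1pr1+ cells 21 were lower and 0 higher (median -1.07), where 21.0% and 21.6% of all genes were. Among those lower were Klf3 (-4.61) and Tcf7, the factor of naive and stem-like T cells (-4.56). The S1pr1+ gate was itself set by a gene of recirculation, so this list is not independent of that gate. In Treg against CD4+ T cells 16 were lower and 1 higher, where 13.9% of all genes were called in each direction. Those lower were led by Tcf7 (-2.84), Klf3 (-2.58) and Bach2 (-2.03).

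Of 20 genes of activation and growth, 13 were higher and 4 lower in NK Itga1+ cells, where 17.5% of all genes were higher and 16.2% lower. The 3 that rose most were Srm, the spermidine synthase (1.94), Pdcd1, which encodes PD-1 (1.71), and Pgk1, a glycolytic enzyme (1.54). Tox (-1.17), Myc (-0.81) and the amino acid transporter subunit Slc3a2 (-0.60) went down. In CD8 Havcr2+ cells 11 were higher (21.6% of all genes), led by the receptors Lag3 (2.45), Tnfrsf4 (2.24) and Tnfrsf9 (1.97), and Myc (-1.03) and Slc3a2 (-0.49) were lower. In Treg against CD4+ T cells 12 were higher (13.9% of all genes), led by Il2ra (2.16), and 2 were lower. Il2ra was also among the Treg markers summed above, so its rise is not independent of the Treg gate. The Havcr2+ gate was set by an inhibitory receptor gene, so a list with Lag3 and Pdcd1 is not independent of that gate either.

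Genes for proteins tied to GIMAP function, of the BCL2 family and of autophagy, made a list of 15. In NK Itga1+ cells 7 were lower and 2 higher (median -0.29), where 16.2% and 17.5% of all genes were. In CD8 Havcr2+ cells 6 were lower and 4 higher (median -0.07), where 21.0% and 21.6% of all genes were. The survival factor Bcl2 fell in both, by 0.75 (SE 0.18) in NK and by 1.55 (SE 0.18) in CD8 T cells, as did its opponent Bcl2l11 (-0.69 and -0.996). The death effector Bak1 rose in both (0.55 and 0.64). The survival factor Bcl2l1 rose in CD8 Havcr2+ cells (0.63) and in Treg against CD4+ T cells (0.71). In Treg against CD4+ T cells 5 were lower, led by Bcl2 (-1.73), and 3 were higher, where 13.9% of all genes were called in each direction. These counts are on the share-of-UMIs scale, which moves with depth as described for the family.

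Genes whose pattern over the 24 sums was most like the summed family were Gm20186 (Pearson r = 0.96), Jmjd1c (0.95), Ly9 (0.95), Ccnd2 (0.95), Abcg1 (0.95), Pnrc1 (0.94), Mxd1 (0.94), Malat1 (0.94), Samd9l (0.92) and Aff1 (0.92), among 11996 genes ranked. The sums share libraries and depth, so the values are a description.

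The genes beside the cluster did not move as one with it. Tmem176a and Tmem176b, next to Gimap3, were higher in NK Itga1+ than Itgam+ cells, by 2.06 (SE 0.38) and 1.85 (SE 0.32), but lower in CD8 Havcr2+ than S1pr1+ cells, with changes of -1.47 (SE 0.31) and -1.15 (SE 0.30). Inside the cluster, the antisense gene Gimap1os was lower in both comparisons, at -0.72 (SE 0.16) and -0.90 (SE 0.14), values that are uncertain where it overlaps Gimap1. The transcript 4833403J16Rik was also lower in both, at -0.89 (SE 0.23) and -1.26 (SE 0.20).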

How the data were processed

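Tumor-infiltrating lymphocytes of 3 libraries (2 KG+ and 1 KR+) were grouped by the labels' Kaede color. Per the labels and file headers, the authors deposited raw UMI counts per gene and barcode, filtered to cell barcodes and not normalized. The submitters' processing notes name Cell Ranger 6.1.2 and mm10, while the file headers name Cell Ranger 6.0.1. Whether counting used strand is not given in the sources used here. Barcodes numbered 10498, 12327 and 11956, with 87193225, 129438292 and 175848894 UMIs in Kaede-green 1, Kaede-green 2 and Kaede-red. Libraries shared 20 to 36 barcodes by pair. A cell was kept at 1000 to 6000 genes if its mitochondrial share was under 7.5%, which left 10000, 11078 and 10865.

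UMIs were summed per library and gate (24 sums, and 18 for cycling). Sums were fitted with edgeR 4.0.16 (R 4.3.3; quasi-likelihood, TMM, filterByExpr, model of gate and library), and p-values were adjusted by Benjamini-Hochberg over all genes tested, with a threshold of 0.05. Library was a block because the gates of 1 library share their animals, sort and depth. Kaede-red was set against Kaede-green without a test, as log2 ratios of CPM with 0.5 counts added and 95% intervals that cover counting error only. The study's test over single cells was not used, since cells are not replicates. Cells meeting 2 gates were kept apart. Doublets were otherwise kept, and as an alternative cells with a Scrublet-type score above 0.25 (421, 450 and 353 cells) were left out. Other alternatives were DESeq2 1.42.0, RLE factors, no filter on low counts, no block, every barcode, a stricter gate, cells thinned to 2000 UMIs (at most 2 cells of a gate were shallower), no cycling cells, fits on the compared gates only, and each library left out. Scaling by cells, color without cycling cells or per cell, and the shorter promoter words were added after seeing the data. Python 3.11.15 was used for all else.

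All 8 members are named, with the 3 largest called changes of each list in each direction, the 10 genes most like the family and the nearest genes beside the cluster. Of the genes this rule names, 1 is not reported here. Members and lists were chosen with earlier results of these data known. Of the gene identifiers, 32158 of 32285 (99.6%) were found in GENCODE for GRCm38. Promoters came from RefSeq tables.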

Additional observations from a re-analysis of the deposited data

Results flagged for a closer look

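Gimap6 fell more in CD8 Havcr2+ against S1pr1+ cells than in NK Itga1+ against Itgam+ cells, by a test of the difference itself (1.07 log2 units, SE 0.25, adjusted p = 0.00528 by edgeR). It was 1 of 8 members called, where 8.06% of all genes were called in that direction. The call was lost without Kaede-green 1 and without Kaede-green 2, where 280 of 12468 and 236 of 11860 genes were called in that direction.

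In KR+ Treg, 8 of 8 members lay above both KG+ libraries, whereas in NK Itgam+, NK cells with neither gene, NK Itga1+, CD8 S1pr1+ and CD8 cells with neither gene all 8 lay below both. Of all genes 41.4% lay above both in Treg and 34.8% to 54.8% below both in the other 5 gates. The difference between these gates was not tested, KR+ is 1 library, and the gates share the same libraries. Per cell, 1 member lay above and 3 below both KG+ libraries in Treg, and 1 lay below and 4 above in NK Itga1+ cells. No share of all genes was counted on the per-cell scale.

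The family was also present in cells used in no comparison. In B cells it was at 1316 CPM in the lowest library with at least 50 cells, and in cells that met no gate it was at 1517 CPM in the lowest library. Myeloid cells were at 51.1 to 111 CPM.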

How the results depend on the processing

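Of 808 member values under the alternatives other than scaling by cells and leaving out a library, 0 turned in a called direction. On their side of the threshold stayed 754, counting any change of sign that was called in neither setting. So did 214 of 264 values with a library left out, where 0 turned in a called direction. Calls over all genes moved more, from 546 to 2098 genes lower in NK Itga1+ against Itgam+ cells, 0 to 1065 against NK cells with neither gene, and 1147 to 2556 in CD8 Havcr2+ against S1pr1+ cells. They ran from 638 to 1896 lower and 510 to 2254 higher in Treg against CD4+ T cells, and from 236 to 1159 for the difference of both changes. With the NK cells of neither gene against Itgam+ cells, 0 to 568 were lower, with CD8 T against NK 1697 to 2887, and 1055 to 2317 were higher in CD4+ against CD8 T cells. In cycling cells 325 to 1388 (NK Itga1+), 329 to 1717 (CD8 Havcr2+) and 481 to 2447 (Treg) were lower.

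Scaling by cells, chosen after seeing the data, changed the sign of 59 of 88 member values, 50 of them called on at least 1 of the scales and given here. It moves all genes up in the deeper gate by construction. For NK Itga1+ against Itgam+ they were 0.43 (Gimap1), 0.0021 (Gimap3), 0.51 (Gimap4), 0.29 (Gimap5), 0.22 (Gimap6), 0.62 (Gimap7), 0.21 (Gimap8) and 0.013 (Gimap9). For NK Itga1+ against neither they were 0.21 (Gimap1), 0.14 (Gimap3), 0.36 (Gimap4), 0.024 (Gimap5), 0.052 (Gimap6), 0.25 (Gimap7), 0.22 (Gimap8) and 0.090 (Gimap9). For CD8 Havcr2+ against S1pr1+ it was 0.053 (Gimap1). For Treg against CD4+ T they were 0.56 (Gimap1), 0.55 (Gimap4), 0.41 (Gimap5), 0.077 (Gimap6), 0.52 (Gimap8) and 0.52 (Gimap9). For CD8 T against NK they were 0.073 (Gimap1) and 0.21 (Gimap3). For CD4+ against CD8 T they were -0.15 (Gimap4) and -0.022 (Gimap8). For cycling NK Itga1+ they were 0.44 (Gimap1), 0.74 (Gimap4), 0.088 (Gimap5), 0.39 (Gimap6), 0.65 (Gimap7), 0.35 (Gimap8) and 0.48 (Gimap9). For cycling CD8 Havcr2+ they were 0.57 (Gimap1), 0.34 (Gimap3), 0.80 (Gimap4), 0.43 (Gimap5), 0.52 (Gimap6), 0.95 (Gimap7), 0.65 (Gimap8) and 0.85 (Gimap9). For cycling Treg they were 0.82 (Gimap1), 0.13 (Gimap3), 1.02 (Gimap4), 0.35 (Gimap5), 0.41 (Gimap6), 0.76 (Gimap7), 0.65 (Gimap8) and 1.05 (Gimap9). By cells the members called lower were 0 for NK Itga1+ against Itgam+ (8 by UMIs) and against neither (7), 4 for CD8 Havcr2+ (8), 0 for Treg against CD4+ T (1), and 0 for cycling NK Itga1+ (8), CD8 Havcr2+ (6) and Treg (7). Members called higher were 6 for Treg (1 by UMIs), 1 for CD4+ against CD8 T (7) and 5 for the difference of both changes (1). By color, members below both KG+ libraries became 5 in NK cells with neither gene, 1 in NK Itga1+, 4 in CD8 S1pr1+ and 0 in CD8 Havcr2+, and members above both became 1 in Treg. These color counts have no share of all genes beside them.

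The replicate block was the library, which the gates share. Without the replicate block, 0 members were lower in NK Itga1+ cells than in NK cells with neither gene, where 0 of 12004 genes were. In that setting 0 members were lower and 0 higher in Treg against CD4+ T cells, where 1082 genes were lower and 1013 higher. Fits on the compared gates alone called 2 members in NK cells with neither gene against Itgam+ cells, where 499 of 10662 genes were lower. They called 2 for the difference of both changes (1159 of 11239 genes) and 2 lower in Treg (1469 of 10204 genes). Without Mki67 or Top2a cells, 2 were lower in NK Itga1+ than in NK cells with neither gene, where 112 of 10694 genes were. In Treg 0 were lower, where 893 of 10694 genes were. In KR+ CD8 cells with neither gene 0 were 1.5-fold lower in that setting. With every gene of at least 1 UMI, 2 were called for the difference, where 1108 of 21589 genes were. With thinned cells, 2 were called for the difference (406 of 9172 genes) and 0 lower in Treg (682 of 9172 genes). By color, thinned cells gave 0 members 1.5-fold lower in CD8 cells with neither gene and 1 in CD4+ T cells. In thinned CD8 Havcr2+ cells 5 lay below both. No share of all genes was counted for color with thinned cells or without Mki67 or Top2a cells. The cause of these changes was not tested.

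Leaving out 1 library gave 4 to 7 members lower in NK Itga1+ against Itgam+, 0 to 8 against neither, 7 to 8 in CD8 Havcr2+, 0 to 4 for the difference, 0 to 3 lower and 0 to 1 higher in Treg, 5 to 8 in CD8 T against NK, and 5 to 8 higher in CD4+ against CD8 T cells. In cycling cells it gave 6 to 8 (NK Itga1+), 4 to 5 (CD8 Havcr2+) and 6 to 8 (Treg). With KR+ as 1 library, no test of Kaede color was possible, and where a single library is left in an arm it is assumed to vary like the others. Among the 8 gates, the sum with the fewest cells was NK Itgam+ of KR+ (76 cells). Some cycling sums held fewer, down to 20 cells for cycling NK Itga1+ in KG+ 1.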
